A study of Rattus norvegicus with 23 samples.

Results

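Transcript levels of 8 core circadian clock genes were followed over 24 hours in cells of the embryonic rat brain grown as 3D aggregates. The genes were taken by Ensembl identifier and make up 8 of the 32494 genes counted: Per1 (ENSRNOG00000007387), Per2 (ENSRNOG00000020254), Per3 (ENSRNOG00000018413), Arntl (ENSRNOG00000014448, now also called Bmal1), Clock (ENSRNOG00000002175), Nr1d1 (ENSRNOG00000009329), Dbp (ENSRNOG00000021027) and Cry1 (ENSRNOG00000006622). The aggregates were made from brains of Sprague Dawley rats at embryonic day 15 and kept for 14 days with agitation, with the medium renewed at intervals of 3 days. They were then given 120 ng/ml sepiapterin, a precursor that cells turn into the enzyme cofactor tetrahydrobiopterin, or phosphate-buffered saline (PBS) as control. The title of the series asks whether early treatment of phenylketonuria with sapropterin, a synthetic form of that cofactor, affects brain development. Controls were taken at 0, 6, 12 and 24 hours (T0, T6, T12 and T24) and sepiapterin aggregates at the last 3 of these times, with 3 libraries in each of the 7 groups. A repeat library of 2 T12 controls brings the total to 23 libraries. No sepiapterin group exists at T0, and nothing in the labels says at what hour of the day the cultures were started or taken.

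The clock is a loop of transcription factors found in nearly all mammalian cells. The proteins of Arntl and Clock pair up and switch on genes that carry E-box sequences, among them the Per, Cry, Nr1d1 and Dbp genes. Per and Cry proteins enter the nucleus and inhibit that pair, Nr1d1 protein represses Arntl through ROR elements, and Dbp protein carries the rhythm to output genes through D-boxes. In a tissue whose cells run in step, Arntl mRNA is known to peak when Dbp, Nr1d1 and Per mRNA are low, and the reverse. In the brain the suprachiasmatic nucleus keeps other regions in step, while cells in culture hold separate rhythms that drift apart unless a stimulus resets them.

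These elements can be seen in the stretch before the start of the Arntl and Per2 genes, which are shown because one belongs to each limb of the loop. RefSeq windows (build GRCr8) of 250 bases before the gene start were found for 7 of the 8 genes. Capitals mark, in the Arntl window, a pair of ROR elements with the letters TAGGTNA and, in the Per2 window, a D-box (TTATGTAA) and then an E-box variant (CACGTT), all searched on both strands. The Arntl window is chr1:176766078-176766327 on the plus strand and the Per2 window is chr9:99496994-99497243 on the minus strand.
Arntl: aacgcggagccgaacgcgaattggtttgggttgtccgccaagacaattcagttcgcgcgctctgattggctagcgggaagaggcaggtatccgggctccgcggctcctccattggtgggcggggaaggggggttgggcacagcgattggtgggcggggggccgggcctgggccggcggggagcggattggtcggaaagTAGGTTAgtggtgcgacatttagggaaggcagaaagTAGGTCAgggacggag
Per2: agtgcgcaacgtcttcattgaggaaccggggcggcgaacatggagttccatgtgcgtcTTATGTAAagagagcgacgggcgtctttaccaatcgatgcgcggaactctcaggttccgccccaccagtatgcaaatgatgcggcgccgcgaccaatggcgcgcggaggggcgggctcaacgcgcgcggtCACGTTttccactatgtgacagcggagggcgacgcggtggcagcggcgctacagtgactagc

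In Arntl the elements begin 52 and 16 bases before the start, and the second contains the shorter core AGGTCA. The letters TAGGTNA, which were chosen with this window in view, were in 7.55% of 33469 such windows, and AGGTCA in 14.1%. In Per2 the D-box begins 192 and the E-box variant 62 bases before the start, and these letters were in 0.828% and 4.07% of windows. For Nr1d1, whose start is annotated at 2 places, the full E-box CACGTG was in 1 window and CACGTT in the other, and CACGTG was in 5.59% of all windows. The windows of Per1, Per3, Clock and Dbp held none of the 5 motifs searched. A match is a run of letters and not a measured binding site. Bases outside these windows were not searched, so a window without a match does not show that the gene lacks the motif.

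Every one of the 8 genes was read in every library, with 247 to 1736 reads, and all 8 passed the filter on low counts. Libraries held 16991417 to 26588314 reads in genes. One T0 control, replicate 1, was farther from its group than any other library was: over all genes its root mean square difference was 0.371 and 0.400 log2 units from replicates 2 and 3, which lay 0.260 apart. T0 results are therefore also given without it. For the T12 controls titled 10 and 11 and for their repeats, the titles and the names inside the files are exchanged. Grouping here is by title, and tests that use T12 are also given by the name inside the file. Libraries of T6 and T12 were made in a first batch and those of T24 and the repeats in a second, per the labels, which name no batch for T0. No table used here pairs other identifiers with symbols, so the labelled tissue was not checked against marker genes and other clock genes were not analysed here. In such bulk samples, fewer cells of a type and less RNA per cell cannot be told apart.

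Levels are CPM, the usual counts relative to all reads in genes of a library, scaled by the trimmed mean of M-values (TMM), which corrects for library composition. They are compared within a gene only, since CPM is not per length. Differences are log2 fold changes from edgeR's quasi-likelihood test, with Benjamini-Hochberg adjustment over all genes tested and a call below 0.05.

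**Figure D1:**
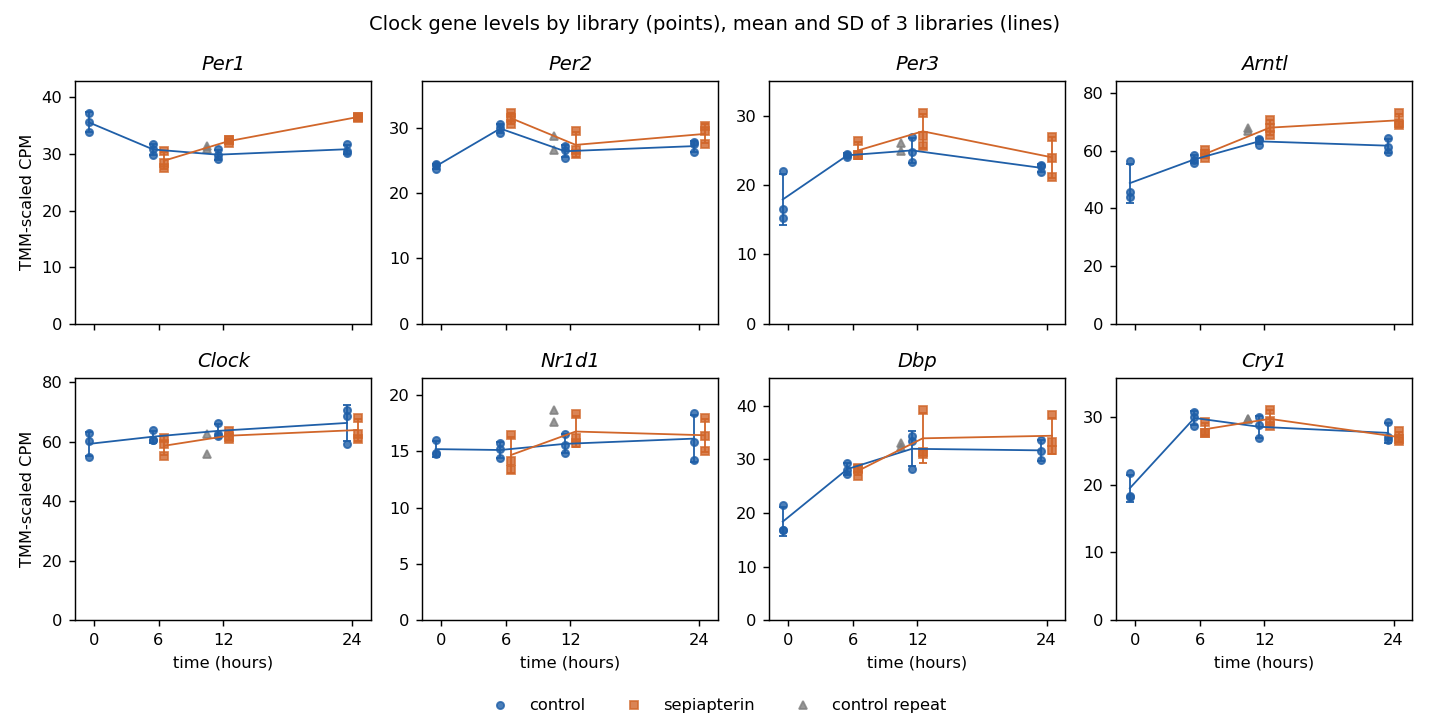
Level of each clock gene (TMM-scaled CPM, axis from 0) against time in hours, with 1 point per library, lines through the means of 3 libraries and bars of 1 SD. Dbp and Cry1 lie lower in the T0 controls than in every later library, while the controls of Nr1d1 and Clock overlap between all times.

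Of the steps in time, that from T0 to T6 in control aggregates held the most calls. Dbp and Cry1 rose 1.54-fold each, Per3 1.36-fold and Arntl 1.17-fold, Per2 rose by 0.32 on the log2 scale, and Per1 fell by 0.20 on that scale. Clock and Nr1d1 did not pass the test. Of the 8 genes 6 were thus called, 5 higher and 1 lower, where 21.6% of all 14035 genes tested were called. Among all genes 10.9% were called higher and 10.7% lower. All libraries of one group lay above or below the other for 5 of the 8 genes, and for 36% of the genes tested. In size, the median log2 fold change without its sign was 0.27 over the 8 genes and 0.13 over all. Since no batch is named for T0, time and library preparation cannot be told apart in this step.

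Dbp, the output factor, stood at 21.5, 16.8 and 16.9 CPM in T0 control replicates 1, 2 and 3 and at 29.4, 28.0 and 27.2 CPM at T6. All T6 controls were above all T0 controls, and T0 replicate 1 was the nearest to them. The log2 fold change was 0.62 ± 0.10 (SE, adjusted p = 0.00016), and 0.76 without T0 replicate 1.

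Cry1, which encodes a repressor of the Arntl and Clock pair, stood at 21.8, 18.4 and 18.2 CPM at T0 and at 28.7, 30.0 and 30.7 CPM at T6. Again the groups did not overlap and T0 replicate 1 was highest of the T0 controls. The log2 fold change was 0.62 ± 0.07 (SE, adjusted p = 1e-06), and 0.72 without that library. By p, Cry1 ranked at 45 among the 14035 genes, ahead of every other clock gene.

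The Per genes, which encode the partners of Cry proteins in repression, did not move alike. Per3 had 22.0, 16.5 and 15.2 CPM at T0 and 24.5, 24.0 and 24.4 CPM at T6, a log2 fold change of 0.44 ± 0.10 (SE, adjusted p = 0.0036) and 0.63 without T0 replicate 1. Per2 had 24.3, 23.6 and 24.4 CPM at T0 and 29.9, 29.2 and 30.5 CPM at T6, a log2 fold change of 0.32 ± 0.06 (SE, adjusted p = 0.00044). In Per2 the 3 T0 controls lay close together, and its log2 fold change was 0.33 without replicate 1. Per1, a Per gene known also as an immediate target of signalling through cyclic AMP and glucocorticoids, went the other way, with 35.7, 33.8 and 37.3 CPM at T0 and 31.7, 29.9 and 30.8 CPM at T6. Its log2 fold change was -0.20 ± 0.05 (SE, adjusted p = 0.0078), with no overlap, and -0.19 without T0 replicate 1.

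Arntl, the activator, had 56.5, 43.9 and 45.8 CPM at T0 and 55.7, 56.6 and 58.5 CPM at T6. T0 replicate 1 lay among the T6 controls and the other T0 controls below them. The log2 fold change was 0.23 ± 0.07 (SE, adjusted p = 0.013), rising to 0.36 without T0 replicate 1. It was 0.16 without T0 replicate 2 (adjusted p = 0.11), 0.18 without T0 replicate 3 (adjusted p = 0.076) and 0.21 without T6 control replicate 3 (adjusted p = 0.061), none of which passed. Without T0 replicate 1, 22.6% of all genes were called. A fit of the T0 and T6 controls alone called 12% of all genes and 3 of the 8, Cry1, Dbp and Per2, with adjusted p-values of 0.0048, 0.0085 and 0.011. Per1, Per3 and Arntl had adjusted p-values of 0.060, 0.058 and 0.13 in that fit, with log2 fold changes of -0.20, 0.45 and 0.23.

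Clock, the partner of Arntl, had 54.8, 60.2 and 63.0 CPM at T0 and 60.7, 64.1 and 60.5 CPM at T6, and its log2 fold change was 0.07 (95% interval -0.07 to 0.20). Nr1d1, the repressor of Arntl, had 14.9, 16.0 and 14.8 CPM at T0 and 15.8, 14.4 and 15.3 CPM at T6, with a log2 fold change of -0.00 (95% interval -0.20 to 0.19). Both intervals include 0 and end below those of Dbp and Cry1, which began at 0.41 and 0.48.

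The sepiapterin aggregates at T6 stood near the T6 controls in these genes. Dbp was at 28.3, 26.9 and 28.4 CPM and Cry1 at 27.6, 29.2 and 27.6 CPM, all above the T0 controls, which are the only T0 libraries of the study.

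**Figure D2:**
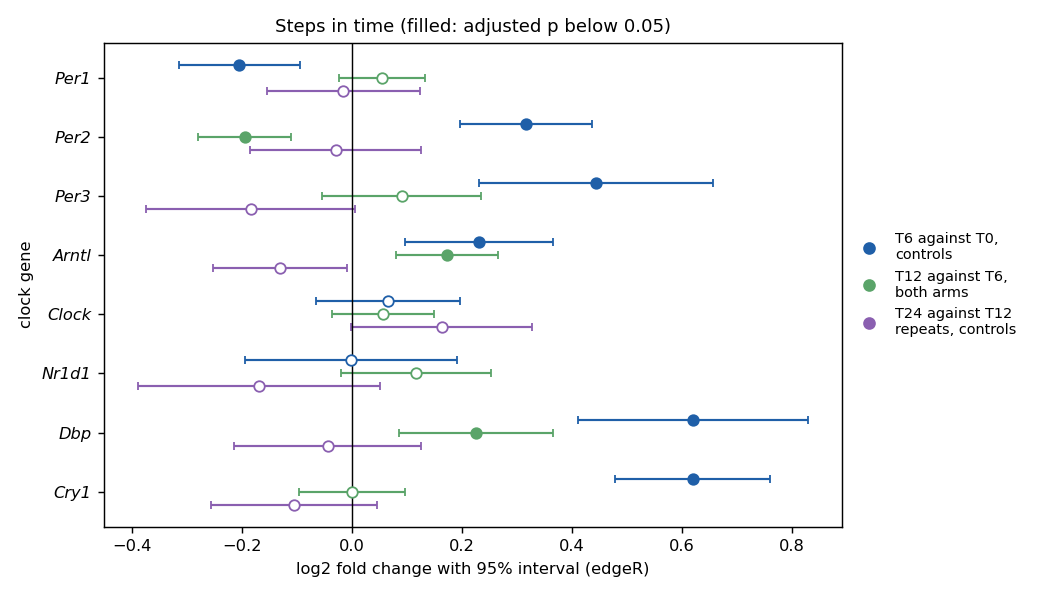
Log2 fold change of each clock gene with its 95% interval for 3 steps in time, T6 against T0 in controls, T12 against T6 in both arms and T24 against the T12 repeats in controls. Filled points passed an adjusted p of 0.05, and from T12 to T24 there are none.

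Between T6 and T12, which share the first library batch by label, the clock genes moved less. Averaged over control and sepiapterin (6 libraries against 6), Arntl rose 1.13-fold and Dbp 1.17-fold, and Per2 fell by 0.20 on the log2 scale. These 3 of the 8 genes were called, 2 higher and 1 lower, where 15.5% of all genes were called, 8.54% higher and 7% lower.

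Per2 had 25.4, 27.2 and 26.6 CPM in T12 controls, all below the T6 controls, and 29.5, 26.6 and 26.0 CPM with sepiapterin at T12 against 32.3, 30.6 and 31.5 CPM at T6. In each arm every T12 library was below every T6 library, and groups did not overlap for 29.3% of all genes in controls and 30.6% with sepiapterin. The mean log2 fold change over the arms was -0.20 ± 0.04 (SE, adjusted p = 0.0027). It was -0.18 in controls (adjusted p = 0.066) and -0.21 with sepiapterin (adjusted p = 0.040).

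Arntl stood at 63.8, 63.9 and 62.0 CPM in T12 controls, and with sepiapterin at 65.4, 67.8 and 70.7 CPM at T12 against 58.8, 57.5 and 60.2 CPM at T6. Here too the T6 and T12 libraries of an arm did not overlap, with every T12 library higher. The mean log2 fold change was 0.17 ± 0.05 (SE, adjusted p = 0.011), 0.14 in controls (adjusted p = 0.19) and 0.20 with sepiapterin (adjusted p = 0.067).

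Dbp stood at 33.3, 34.3 and 28.3 CPM in T12 controls and at 31.1, 31.4 and 39.3 CPM with sepiapterin, where replicate 3 was well above the others. The mean log2 fold change was 0.23 ± 0.07 (SE, adjusted p = 0.027). Its call was lost without any one of 6 libraries, T12 control replicates 1 and 2, T6 control replicates 2 and 3, T6 sepiapterin replicate 2 and T12 sepiapterin replicate 3. The adjusted p-values were then 0.052 to 0.088 and the log2 fold changes 0.17 to 0.22.

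Per1, Per3, Clock, Nr1d1 and Cry1 were not called in this step, with mean log2 fold changes of 0.06, 0.09, 0.06, 0.12 and 0.00. The 95% interval for Cry1 ran from -0.10 to 0.10. In controls alone edgeR called 0 of the 8 genes, with 2 at an unadjusted p under 0.05, and DESeq2 also called 0, where edgeR called 4.67% of all genes. That share rested on single libraries, at 0.543% without T12 control replicate 1, 0.741% without replicate 2 and 9.87% without replicate 3, and 0.734 to 1.67% without any one T6 control. With sepiapterin alone edgeR called 1, Per2, against 4.37% of all genes (1.49% lower), and DESeq2 called 2, Per2 and Arntl, against 6.48% of the genes it tested. The Per2 call with sepiapterin alone was lost without any one of the 3 T6 libraries or without T12 replicate 2 or 3, at log2 fold changes of -0.17 to -0.23.

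Grouping the T12 controls by the name inside the files kept all 3 calls of both arms. The log2 fold changes were then -0.17 for Per2, 0.20 for Arntl and 0.21 for Dbp, with adjusted p-values of 0.0077, 0.0076 and 0.043. In controls alone that grouping gave -0.13 for Per2 and 0.20 for Arntl (adjusted p = 0.25 and 0.14), again with 0 of the 8 genes called.

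From T12 to T24 no clock gene passed the test, and several values depended on which T12 libraries are the repeats. In controls, the T24 libraries were set against the T12 repeats, which share the second library batch by label. EdgeR called 0 of the 8 genes and 5.54% of the 13653 genes tested. Arntl alone had an unadjusted p under 0.05, at 61.3, 59.5 and 64.2 CPM at T24 against 66.9 and 68.0 CPM in the repeats, a log2 fold change of -0.13 (95% interval -0.25 to -0.01, adjusted p = 0.18). DESeq2 called 0. All T24 controls were below both repeats in 3 of the 8 genes, Arntl, Per3 and Cry1, while 43.8% of all genes had no overlap here.

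Clock was at 59.4, 68.8 and 70.9 CPM in the T24 controls against 55.8 and 62.5 CPM in the repeats. Its log2 fold change was 0.16 (adjusted p = 0.22), and 0.24 without T24 control replicate 1 (adjusted p = 0.046), the lowest of the 3. For Dbp the log2 fold change was -0.04 (95% interval -0.21 to 0.13) and for Cry1 it was -0.11 (95% interval -0.26 to 0.04). By the name inside the files the log2 fold change was -0.05 for Arntl (adjusted p = 0.83), 0.05 for Clock and 0.00 for Cry1. For Nr1d1 it was 0.04 in place of -0.17, and 0 of the 8 genes were called, against 0.58% of all genes.

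With sepiapterin, T24 was set against T12 in a fit of 20 libraries with the batch as a term, which the repeated T12 controls estimate. That fit did not use the pairing of the repeats with the first libraries of the same samples. EdgeR and DESeq2 each called 0 of the 8 genes, where edgeR called 7.69% of 14091. Cry1 was lower in every T24 than in every T12 library and Per1 higher, 2 of the 8 genes, while 30.3% of all genes had no overlap. Cry1 at -0.20 and Per3 at -0.25 on the log2 scale had an unadjusted p under 0.05 (adjusted p = 0.16 and 0.19). By the name inside the files, Cry1 was at -0.04 (adjusted p = 0.84) and Per3 at -0.27 (adjusted p = 0.16). Nr1d1 then went from -0.25 to 0.10 and Per1 from 0.11 to 0.25 (adjusted p = 0.054), with 0 of the 8 genes called, against 4.37% of all genes. Without T24 sepiapterin replicate 3, the log2 fold change of Per3 was -0.34 (adjusted p = 0.048).

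After 24 hours the control levels of most of these genes differed from T0, for which no batch is named, while T24 is in the second batch. Clock and Nr1d1 were not called (adjusted p = 0.066 and 0.53). At T24 against T0 in controls 6 of the 8 genes differed, 5 higher and 1 lower, where 25.7% of all genes were called, 12.9% higher and 12.8% lower. They are the 6 called at T6 against T0, in the same directions, and both comparisons share the T0 controls. Dbp was 1.72-fold higher (33.7, 31.5 and 29.8 CPM at T24, log2 fold change 0.78 ± 0.10 SE, adjusted p = 1.5e-05), with no overlap with T0.

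Cry1 was 1.42-fold higher, at 29.3, 27.0 and 26.6 CPM, and Arntl 1.27-fold higher, both above all T0 controls (adjusted p = 2.3e-05 and 0.00058). Per3 at 22.8, 21.8 and 22.9 CPM overlapped T0 replicate 1, with a log2 fold change of 0.33 (adjusted p = 0.027). Per2 at 27.6, 26.2 and 27.8 CPM was above all T0 controls, with a log2 fold change of 0.17 (adjusted p = 0.035). Per1 at 30.2, 31.8 and 30.5 CPM was below all T0 controls, with a log2 fold change of -0.21 (adjusted p = 0.0067). Dbp, Cry1, Arntl, Per2 and Per1 thus lay fully apart from T0, a separation found in 35.7% of the 14035 genes tested.

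Without T0 replicate 1 the same 6 genes were called, against 29.3% of all genes, with log2 fold changes of 0.92 for Dbp, 0.60 for Cry1, 0.52 for Per3, 0.47 for Arntl, 0.19 for Per2 and -0.20 for Per1. A fit of the T0 and T24 controls alone called Dbp, Cry1 and Arntl, against 13.8% of all genes. The calls of Per2 and Per3 were lost without T0 replicate 2 or 3 or without T24 control replicate 1 or 3, at adjusted p-values of 0.062 to 0.15. Clock passed without T0 replicate 3 (adjusted p = 0.038) or T24 control replicate 1 (adjusted p = 0.011). T24 lies in the second library batch, so time and batch cannot be told apart here.

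Tested for any change over T0, T6, T12 and T24 in controls, 6 of the 8 genes passed, against 37.3% of all genes. The test had no batch term, with T6 and T12 in the first batch, T24 in the second and none named for T0. Time and batch thus cannot be told apart in it, nor in the spans of means given below. Cry1 had an adjusted p of 1.8e-06, Dbp 1.3e-05, Arntl 0.00043, Per2 0.0017, Per1 0.0027 and Per3 0.0037. Clock had 0.19 and Nr1d1 0.80. Without T24 control replicate 1 Clock also passed (adjusted p = 0.033). The control group means of Dbp spanned 0.80 log2 units from T0, the lowest, to T12, the highest, a wider span than in 93.4% of 14130 genes. Nr1d1 spanned 0.09 log2 units, wider than in 6.3%.

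The order of the control means differed between genes, here with the first-batch T12 libraries beside T24 of the second batch. Cry1 and Per2 were highest at T6, Per3, Arntl and Dbp at T12, Clock and Nr1d1 at T24 and Per1 at T0. For Dbp the means were 18.4 ± 2.65, 28.2 ± 1.12, 32.0 ± 3.24 and 31.7 ± 1.91 CPM (SD, n = 3) at T0, T6, T12 and T24, and the last 2 lay within 1 SD of each other. For Cry1 they were 19.5 ± 2.01, 29.8 ± 1.03, 28.5 ± 1.62 and 27.6 ± 1.46 CPM, and the later 3 times overlapped. For Arntl they were 48.7 ± 6.79, 56.9 ± 1.42, 63.2 ± 1.04 and 61.7 ± 2.39 CPM, with T12 and T24 overlapping. Nr1d1 had 15.2 ± 0.68, 15.1 ± 0.69, 15.7 ± 0.84 and 16.1 ± 2.09 CPM, so no neighbours in its order differed beyond their spread. In the T12 repeats, which share the batch of T24, the means were 18.2 CPM for Nr1d1 and 67.4 CPM for Arntl (n = 2), above those at T24.

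Arntl and Dbp, which belong to opposite limbs of the loop, were low and high in the same libraries. Over the 21 libraries without the repeats, their log2 levels had a Pearson r of 0.92. The points share T0, the scaling and the batches, and the value is a description. It was 0.79 over the 18 libraries without T0 and 0.69 for deviations from group means. Deviations of Arntl also gave r of 0.72 with Per3 and 0.64 with Cry1. Dbp also went with Cry1 (r = 0.83) and Per3 (r = 0.80), but without T0 these were -0.11 and 0.28. For deviations from group means they were 0.47 and 0.64. Per1 had r of -0.54 with Cry1 and -0.40 with Per3, which were -0.29 and -0.02 without T0. With Arntl, Per1 had r of 0.00 over the 21 libraries, 0.72 without T0 and 0.10 for deviations from group means. Nr1d1, which like Dbp is a target of Arntl and Clock protein, had r of 0.45 with Dbp and 0.37 with Arntl. Without T0 these were 0.745 and 0.51, and for deviations from group means 0.48 and 0.03. Clock had r between -0.13 and 0.26 with every other clock gene over the 21 libraries, and between -0.54 and 0.33 without T0. For deviations from group means its r was -0.68 with Cry1 and -0.52 with Dbp. All deviations given here include T0 replicate 1, the library that stood apart. That library was the highest T0 control in Arntl, Dbp, Per3 and Cry1 and the lowest in Clock. The r of deviations was not computed without it.

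**Figure D3:**
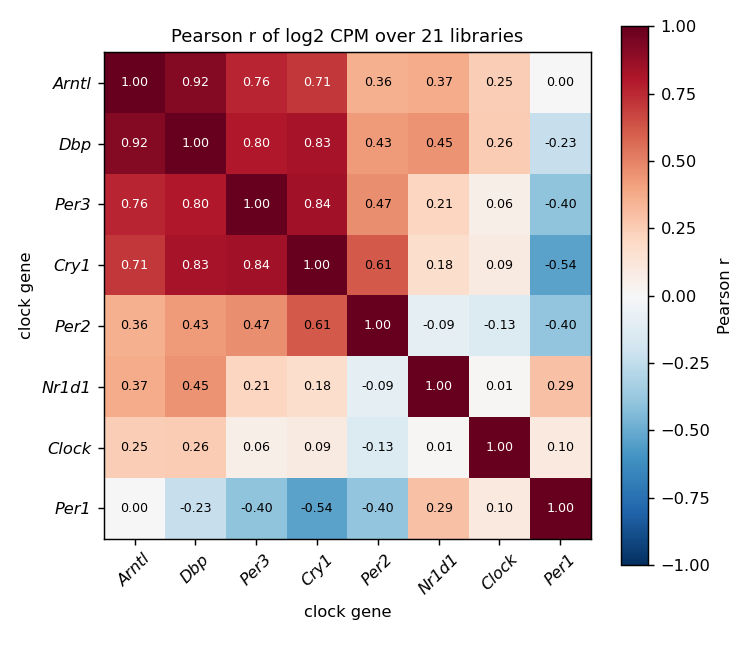
Pearson r between the log2 levels of the clock genes over 21 libraries (both axes list the genes, the colour gives r from -1 to 1). Arntl, Dbp, Per3 and Cry1 form a block with r from 0.71 to 0.92, while Per1 has r at or below 0 with all 4. Without the T0 libraries r is -0.23 for Arntl and Cry1 and 0.72 for Per1 and Arntl. For deviations from group means these are 0.64 and 0.10.

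The ratio of Dbp to Arntl within a library does not depend on the scaling. On the log2 scale it was -1.44 to -1.38 in the T0 controls and -1.11 to -0.92 in the T6 controls. In T12 and T24 controls it was -1.13 to -0.90 and -1.11 to -0.87, and in the 9 sepiapterin libraries it lay between -1.12 and -0.85. All T0 values of this ratio were thus below all later ones, T0 replicate 1 included, and the ratio was not tested. The ratios of Nr1d1, Per3 and Per2 to Arntl did not set T0 apart in this way. At T0 they were -1.926 to -1.455, -1.59 to -1.36 and -1.22 to -0.89. In T24 controls they were -2.17 to -1.74, -1.49 to -1.43 and -1.21 to -1.15, each overlapping T0. The mean ratio of Nr1d1 to Arntl was highest at T0, at -1.67.

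Among 11903 other genes whose mean log2 CPM reached 1, those closest to Dbp over the 21 libraries were ENSRNOG00000016833 (r = 0.96) and ENSRNOG00000014215 (r = 0.95). The most opposite were ENSRNOG00000051490 (r = -0.96) and ENSRNOG00000001726 (r = -0.95). ENSRNOG00000014215 went from 30.9 ± 6.26 CPM at T0 to 59.7 ± 3.42 at T6 in controls (SD, n = 3), and ENSRNOG00000051490 from 394.9 ± 16.1 to 332.7 ± 13.8 CPM. ENSRNOG00000016833 was also among the 2 genes closest to Arntl (r = 0.94).

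Between sepiapterin and control, 1 clock gene was called, Per1 at T24. At T24 Per1 was 1.18-fold higher with sepiapterin, at 36.6, 36.6 and 36.4 CPM against 30.2, 31.8 and 30.5 CPM in controls. The groups did not overlap, and the sepiapterin level was within the range of the T0 controls, 33.8 to 37.3 CPM. No batch is named for T0, and T24 is in the second batch, so batch may enter that likeness. The log2 fold change was 0.24 ± 0.06 (SE, adjusted p = 0.019), where 4.17% of all genes were called at T24 and 2.07% were called higher. The call was lost without T24 control replicate 1 or 3, without sepiapterin replicate 1 or 2, and in a fit of the T24 libraries alone. The adjusted p-values were then 0.056 to 0.12 and the log2 fold changes 0.23 to 0.24.

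Over time, Per1 with sepiapterin stood at 27.5, 28.4 and 30.5 CPM at T6, at 31.9, 32.4 and 32.5 CPM at T12 and at the values above at T24, while T12 controls had 29.1, 29.8 and 30.8 CPM. These levels are not corrected for batch, and T24 is in another batch than T6 and T12. With the batch term, the edgeR log2 fold change of Per1 from T12 to T24 with sepiapterin was 0.11 (adjusted p = 0.43). At T6 its log2 fold change against control was -0.09 (adjusted p = 1.00) and at T12 it was 0.11 (adjusted p = 0.30), where the sepiapterin libraries were all above the controls. The change of this effect from T6 to T24 was tested itself and was 0.34 ± 0.08 on the log2 scale (SE), with an unadjusted p of 0.000189 and an adjusted p of 0.12, so it did not pass. For that difference edgeR and DESeq2 each called 0 of the 8 genes, edgeR called 0% of all genes, and Per1 had rank 20 by p. DESeq2 gave Per1 an adjusted p of 0.055, and edgeR 0.025 without T24 sepiapterin replicate 3.

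Arntl at T24 was the other gene with no overlap, at 73.1, 69.7 and 68.7 CPM with sepiapterin against 61.3, 59.5 and 64.2 CPM in controls. Its log2 fold change of 0.19 ± 0.07 (SE, adjusted p = 0.086) did not pass. At T12 the sepiapterin libraries of Arntl were likewise all above the controls, with a log2 fold change of 0.11 (adjusted p = 0.42). By the name inside the files the T12 values were 0.05 for Arntl and 0.06 for Per1 (adjusted p = 0.75 and 0.62). Groups did not overlap for 2 of the 8 genes at T12 and 2 at T24, and for 1, Per2, at T6, against 22.3%, 23.5% and 10.7% of all genes.

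For the remaining clock genes no difference from control was detected at any time. At T24 the 95% intervals of the log2 fold change were -0.03 to 0.22 for Per2, -0.12 to 0.32 for Per3, -0.19 to 0.08 for Clock, -0.18 to 0.22 for Nr1d1, -0.09 to 0.32 for Dbp and -0.18 to 0.11 for Cry1. EdgeR called 0 of the 8 genes at T6, with 0 at an unadjusted p under 0.05, and 0% of all genes. It called 0 at T12, with 1 at an unadjusted p under 0.05, and 0.0214% of all genes. Without T12 control replicate 3 that share was 2.18%, with 0 of the 8 genes called. DESeq2 called 0 of the 8 at both times. Without its sign, the log2 fold change had a median of 0.06, 0.10 and 0.10 over the 8 genes at T6, T12 and T24, and of 0.05, 0.09 and 0.10 over all genes.

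Averaged over the 3 times, a comparison added after the values were seen, edgeR called 0 of the 8 genes and 1.03% of all genes. Arntl at 0.12 (adjusted p = 0.10), Per1 at 0.09 (0.14) and Per2 at 0.08 (0.24) on the log2 scale had an unadjusted p under 0.05. In an edgeR fit without the T0 libraries Arntl passed (adjusted p = 0.015), where 4.7% of all genes were called. DESeq2 was run only with the T0 libraries, and there it called 0 of the 8 genes (adjusted p = 0.079 for Arntl).

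**Figure D4:**
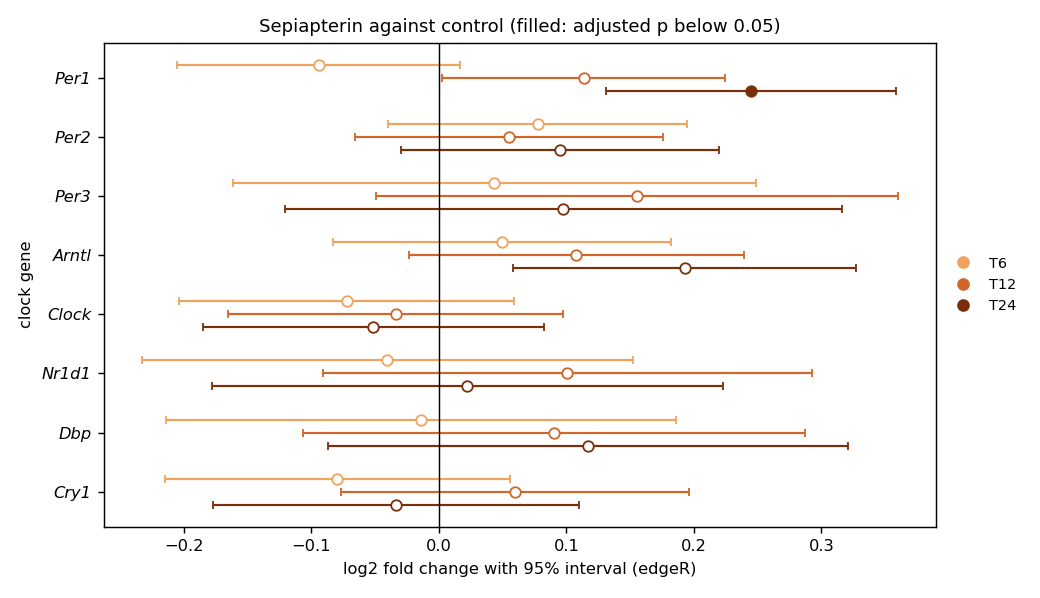
Log2 fold change of each clock gene between sepiapterin and control, with its 95% interval, at T6, T12 and T24. The filled point, with an adjusted p below 0.05, is Per1 at T24, and the intervals of Clock, Nr1d1, Dbp, Cry1, Per2 and Per3 include 0 at all 3 times.

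The repeat libraries give a second preparation of the same 2 samples. Directions here are by title, and by the name inside the files every one of them turns. For the sample titled 10, Nr1d1 was at 14.9 CPM in the library of that title and 17.6 CPM in the repeat, and for the sample titled 11 it was at 16.6 and 18.7 CPM, differences of 18.1% and 13.1%. Clock was lower in both repeats, by 10.0% and 5.9%. Cry1 was higher by 3.3% and 10.8%, and Per1 by 6.1% and 5.6%. Dbp and Per3 differed by at most 6.0%. EdgeR called 0 of the 8 genes between repeats and first libraries, with 1, Nr1d1, at an unadjusted p under 0.05, where 7.32% of 13505 genes were called. That test did not use the pairing of each repeat with the first library of its sample. A fit that did, which called more of all genes, is given in the last section. Both repeats were above all 3 first-batch T12 controls in 3 of the 8 genes, Nr1d1, Arntl and Per1, while 26.4% of all genes had no overlap with those controls. By the name inside the files this holds for none of the 3. The repeats of Nr1d1 would be at 14.9 and 16.6 CPM, beside 17.6, 18.7 and 15.6 CPM. Those of Arntl would be at 63.8 and 63.9 CPM, beside 66.9, 68.0 and 62.0 CPM. Those of Per1 would be at 29.1 and 29.8 CPM, below 30.8, 31.4 and 30.8 CPM. The range of Nr1d1 over the control means, 0.09 log2 units, was smaller than its difference between repeats of 0.21 (SE 0.09).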

How the data were processed

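Stranded mRNA libraries were made from 500 ng of total RNA, per the labels' protocols. What the authors deposited is a table of raw read counts for each library. The submitters' processing notes name cutadapt 1.8, STAR 2.5.2b, HTSeq 0.6.1 and the build Rnor_6.0. How strand was set in counting is not stated there, so genes that overlap on opposite strands are uncertain. The 5 summary lines of each table were left out (no gene 14.8 to 17.1%, several places 23.5 to 25.0%). The reference table matched 0 of the 32494 identifiers, so symbols of the 8 genes are those given with their identifiers. The genes and tests were chosen with earlier results of these data known.

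Groups came from sample titles. Tests used edgeR 4.0.16 in R 4.3.3, with robust quasi-likelihood fits, TMM scaling and filterByExpr at a minimum count of 10. They were tried on simulated counts with 200 changed genes. Of 1.25-fold changes 50% were recovered for T6 against T0 and 47.5% for sepiapterin at T24. Of 1.5-fold changes 75% and 76.5% were recovered. False calls made up 4 to 7.4% of the calls. Most comparisons came from 1 fit over 7 groups (21 libraries, 14 residual degrees of freedom). T24 against T12 used, in controls, the 8 libraries of the second batch and, with sepiapterin, 20 libraries with a batch term. Benjamini-Hochberg adjustment ran over all genes tested. DESeq2 1.42.0 was an alternative. Nothing in the labels says that replicates are separate cultures, so p-values reflect only how these samples vary, which may be technical variation. Title numbers pair 2 T12 controls with their repeats. The text names all 8 genes, and the genes whose pattern was closest and most opposite to Dbp over 21 libraries.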

Additional observations from a re-analysis of the deposited data

How the results depend on the processing

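No called result for a clock gene changed its sign in the alternatives run, which were, where they applied, DESeq2, scaling by library size, no filter, T12 controls by the name inside the files, repeats summed with the first library, only the compared groups in the fit, and each library left out. With only the compared groups, 3 of the 8 genes were called at T6 against T0 and 3 at T24 against T0 in controls in place of 6 each, 0 for sepiapterin at T24 in place of 1, and 1 for sepiapterin averaged over times in place of 0. Over all genes these 4 fits called 1644 in place of 3035, 1855 in place of 3611, 196 in place of 585 and 656 in place of 144. For T12 against T6 with sepiapterin, DESeq2 called 2 clock genes and the fit with no filter 0, in place of 1. Over all genes tested these called 804 and 524 in place of 614. Scaling by library size called 1, Per2, for T12 against T6 in controls (671 of all genes in place of 655). Leaving out the batch term called 1, Per1, for T24 against T12 with sepiapterin (2337 of all genes in place of 1083). Leaving out single libraries gave 0 to 1 clock genes for sepiapterin at T24 (11 to 1463 of all genes), for T12 against T6 with sepiapterin (98 to 561 in place of 614), for T24 against T12 in controls (22 to 1208 in place of 757) and with sepiapterin, and for the change of the sepiapterin effect from T6 to T24 (0 to 372 in place of 0). By the name inside the files, 167 of all genes in place of 655 were called for T12 against T6 in controls and 79 in place of 757 for T24 against T12. Leaving out single libraries gave 77 to 1398 of all genes in place of 655 for T12 against T6 in controls and 0 to 309 in place of 3 for sepiapterin at T12, where DESeq2 called 227. With the sample number as a replicate block, 0 clock genes differed between repeats and first libraries, as without it, and 2527 of all genes in place of 988. The cause was not tested. With 3 libraries a group, the median standard error of the log2 fold change over the 8 genes was 0.07 for sepiapterin at T24, which limits the differences that could be detected.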
